A study of Mus musculus with 2 samples.

Results

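Macrophage, lymphocyte and mast cell genes were examined in esophagus from mouse embryos at E18.5, near the end of gestation. The set was every probe set of the array with a single gene symbol among 35 named genes. It found 34 genes on 57 probe sets, of 18193 genes with a single symbol. The expression of the 35th gene, Lck, was not analysed here. The genes were grouped as 5 pan-leukocyte, 18 macrophage and myeloid, 8 thymocyte (developing T cell) and 3 mast cell genes.

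Total RNA from wild-type BALB/c esophagus and from BALB/c esophagus labelled null for both Myf5 and Myod1 was compared on Affymetrix arrays. Both labels name the strain, and neither names a treatment. The proteins Myf5 and Myod1 are transcription factors that start the skeletal muscle programme, and the study's title concerns how striated muscle takes the place of smooth muscle in this organ. Each genotype had 1 array and no replicate, so genotypes could not be tested against each other and every difference compares 2 RNA samples. The sources used here do not give the number of embryos behind each sample.

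Leukocytes reach the fetal foregut from outside it. Tissue macrophages seed embryonic organs from the yolk sac and fetal liver, depend on signalling through the Csf1 receptor, and clear dying cells with the help of the complement protein C1q. Developing T cells mature in the thymus, which lies near the upper foregut, and there they cut and join their receptor genes with the Rag1 and Rag2 recombinase. Mast cells mature within connective tissue and fill their granules with proteases such as chymases, tryptases and carboxypeptidase A. In a whole-tissue sample fewer cells of a type and less RNA per cell cannot be told apart.

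Values are MAS5 signals, the intensity that Affymetrix's summary method gives to each probe set. A low-signal limit of 489, the median over both arrays with controls left out, served in place of detection calls. Weaker signals were set to this limit, and log2 ratios were then taken as double-null over wild-type. A gene below it on both arrays was treated as not measured, and a gene below it on 1 array has only a bound, written "at least". A gene with several probe sets is represented by the one with the highest mean signal. Log2 ratios of different probe sets of the same gene spread with an SD of 0.56 (14307 probe sets, 5455 genes). It is the only error available and leaves out all variation between animals.

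The targeted gene Myf5 had a signal of 4072 in wild-type and 496 in double-null tissue, whereas the brighter Myod1 probe set read 2001 and 1698. The sources used here do not say whether these probes lie within the deleted parts, so the Myod1 signal checks nothing, and the second array is called double-null after its label only. Markers of the labelled tissue were bright on both arrays, with 36718 and 30399 for the basal keratin Krt5 and 21789 and 28823 for the foregut factor Sox2. On the wild-type array 44.6% of probe sets reached the limit, and on the double-null array 55.4%. The 3' to 5' signal ratio of the Gapdh control was 10.5 and 6.96, and that of the Actb control 12.6 and 14.2. The arrays also differed in the Y-linked gene Eif2s3y, at 10.6 and 2402, while the X-inactivation RNA Xist read 42465 and 24254. The part of the share of dim signals, RNA integrity and embryo sex in the differences described here was not tested.

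Across the leukocyte genes the arrays showed no common direction. Of the 34 genes, 24 reached the limit on at least 1 array and 10 on neither. At least 2-fold higher on the double-null array were 4 genes, Ptprc, Rag1, Lyz2 and Cma1, against 6.01% of the 13315 measured genes of the array. At least 2-fold lower were 3 genes, Lyz1, C1qb and Cd8a, against 5.36% of all measured genes. The median log2 ratio was 0.032, beside 0.086 for all measured genes, and 14 of the 24 ratios lay above 0, beside 56.6% of all measured genes. Of the 24, 7 were measured through the double-null array alone and 3 through the wild-type array alone. A gene that passes the limit on 1 array alone necessarily reads higher on that array. The limit sets the size of its ratio, which is a bound, and leaves its sign unchanged. Among the 14 genes at or above the limit on both arrays, 2 were at least 2-fold higher, Ptprc and Lyz2, and the same 3 were lower. The array-wide shares for such genes were 4.4% and 4.99%. These are small counts from 2 arrays, and no test stands behind their difference from the background.

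**Figure D1:**
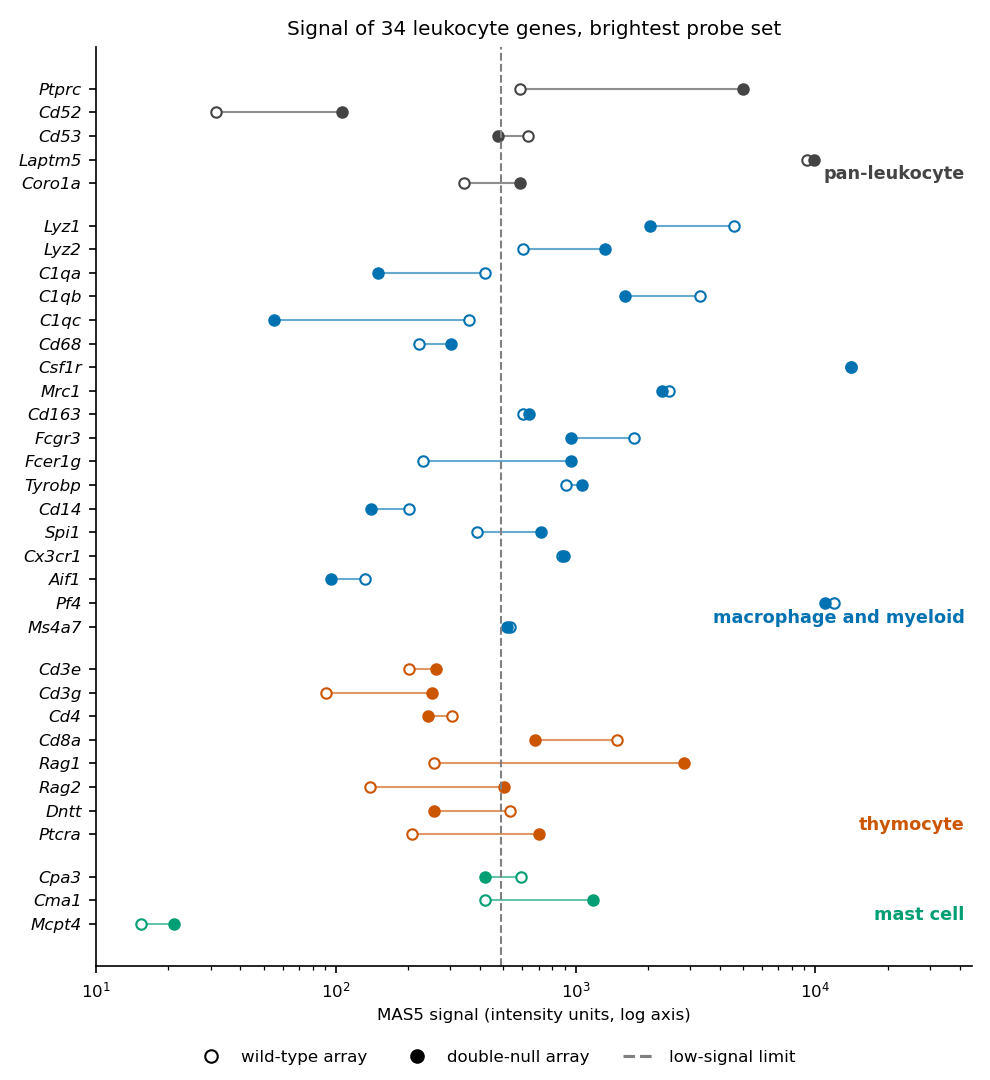
MAS5 signal (log axis, intensity units) of the brightest probe set of each of 34 leukocyte genes on the wild-type array (open circles) and the double-null array (filled circles), grouped by class, with the low-signal limit of 489 as a dashed line. Ptprc and Rag1 show the widest separation among genes that pass the limit, whereas Csf1r, Pf4 and Laptm5 lie far above it with nearly equal signals.

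The class medians were 0.18 for 4 measured pan-leukocyte genes, 0.009 for 13 macrophage genes, 0.038 for 5 thymocyte genes and 0.49 for 2 mast cell genes. With 1 array per genotype the difference between classes was not tested. At the 75th percentile limit the pan-leukocyte median was 0.97, from only 2 genes, Ptprc (1.84) and Laptm5 (0.105). The macrophage median there was -0.23, from 6 genes. The thymocyte median depended on the probe sets and the limit, and it was 0.53 without probe sets whose IDs end in _x_at or _s_at and 0.84 with no limit. Those ID endings mark probe sets whose probes can match more than 1 transcript.

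Among the pan-leukocyte genes the largest difference was in Ptprc, which encodes the receptor tyrosine phosphatase CD45 found on all nucleated blood cells. Ptprc had a signal of 585 in wild-type and 5010 in double-null tissue, 8.57-fold higher. That was the highest ratio of the 13315 measured genes after weaker signals were set to the limit. For the 2256 genes below the limit on the wild-type array only, the ratio is a bound. Taken directly from the signals, the log2 ratio was 3.10 for Ptprc, 3.46 for Rag1 and 7.83 for Eif2s3y. The other Ptprc probe set read 28.8 and 259, below the limit on both arrays.

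The remaining pan-leukocyte genes had smaller ratios or bounds. Laptm5, a lysosomal membrane protein of blood cells, read 9204 and 9899 at its brightest probe set, 1.08-fold higher. All 5 Laptm5 probe sets were measured, and their log2 ratios ran from 0.011 to 0.66. Coro1a, an actin-binding coronin of leukocytes, read 342 and 586, at least 1.20-fold higher. Its second measured probe set read 282 and 635. Cd53, a tetraspanin, read 630 and 475, at least 1.29-fold lower. Cd52, a small surface glycoprotein of lymphocytes and other white cells, read 31.7 and 106, below the limit on both arrays. As reported, 1 of the 4 measured genes of this class passed 2-fold, and 2 of the other values are bounds.

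Receptors that define tissue macrophages were nearly equal on the arrays. Csf1r, the receptor for the growth factors Csf1 and Il34, read 14020 and 14108, 1.01-fold higher. Its other probe sets read 2138 and 2630, and 1684 and 1999. Mrc1, the mannose receptor CD206, read 2454 and 2289, 1.07-fold lower. Cd163, the scavenger receptor for haemoglobin bound to haptoglobin, read 603 and 640. Cx3cr1, the fractalkine receptor, read 875 and 890 at the probe set that was measured. Ms4a7, a 4-pass membrane protein of macrophages, read 533 and 517, next to the limit. For these 5 receptor and membrane genes the fold size ran from 1.01 to 1.07, well inside the spread between probe sets of 1 gene.

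Pf4, a platelet chemokine that fetal tissue macrophages also make, read 11956 and 10930, 1.09-fold lower. The lysosomal protein Cd68 (222 and 302), the lipopolysaccharide coreceptor Cd14 (202 and 140) and the calcium-binding protein Aif1 (133 and 95.3) were below the limit on both arrays. Second probe sets of Cd53, Cx3cr1 and Ms4a7 were below it too. No ratio can be given for Cd68, Cd14 and Aif1, although Cd68 and Aif1 are common macrophage markers.

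Fc receptor and adaptor genes went in different directions. Fcgr3, a low-affinity receptor for IgG, read 1757 and 959, 1.83-fold lower. Fcer1g, the signalling gamma chain that Fc receptors share, read 231 and 954, at least 1.95-fold higher. Tyrobp, the adaptor DAP12 that signals through the same kind of motif, read 916 and 1059, 1.16-fold higher. Spi1, which encodes PU.1, the ETS family factor required for myeloid and B cell development, read 387 and 716, at least 1.46-fold higher. None of these 4 genes reached 2-fold as reported, and the Fcer1g and Spi1 values are bounds. Fcer1g passed 2-fold at the 25th percentile limit (log2 ratio 2.05) and with no limit (1.97), and Fcgr3 with quantile normalization and loess (-1.03 and -1.02 on the log2 scale).

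The C1q genes encode the A, B and C chains of the complement protein C1q, which in most tissues comes from macrophages. They lie side by side on chromosome 4. C1qa read 418 and 150 and C1qc 359 and 55.0, both below the limit on both arrays. C1qb had 3 probe sets. Its brightest read 3308 and 1607, 2.06-fold lower, a second read 2589 and 2272, 1.14-fold lower, and the remaining probe set read 352 and 68.2, below the limit on both arrays. The measured pair have IDs ending in _x_at, and they were so close in mean signal that quantile normalization made the second the brightest, with a log2 ratio of -0.13. In all 5 C1q probe sets the wild-type array read higher, but only 2 of them were measured, and they target the same gene.

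Lyz1 and Lyz2 encode lysozyme P and lysozyme M, near-identical enzymes that break bacterial cell walls. They are neighbours on chromosome 10 with 0 protein-coding genes between them. Lyz1 read 4568 and 2043 at its brightest probe set, 2.24-fold lower. Its second measured probe set read 1365 and 1335, 1.02-fold lower, and the remaining probe set read 41.0 and 182, below the limit on both arrays. Lyz2, the form used as a marker of macrophages and neutrophils, read 601 and 1323 at its single probe set, 2.20-fold higher. That call was lost with loess on signal (log2 ratio 0.83) and with quantile normalization (0.85). The measured Lyz1 probe sets have IDs ending in _x_at, and how far they also capture Lyz2 transcripts was not tested. The opposite ratios of these genes are therefore uncertain.

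The 250 bases before the start of each gene, from RefSeq on GRCm38.p6, were searched on both strands for AGGAAGT, a purine-rich motif of the ETS family to which PU.1 belongs. The motif was chosen after the sequences were seen. A promoter was at hand for 28 of the 35 genes. The motif was present for 6 of 13 macrophage, 3 of 8 thymocyte (Lck included, Cd4 not), 1 of 4 pan-leukocyte and 0 of 3 mast cell genes. Of all 27025 genes with a promoter, 8.8% held it. Because of how the motif was chosen, no conclusion can be drawn from the counts beside this share. Lyz1 and Lyz2 are counted separately. The Lyz1 and Lyz2 windows are shown because these neighbours are close copies whose brightest probe sets went different ways, and those of Rag1 and Ptprc because they had the largest ratios. Capitals mark the motif or its reverse complement, each sequence runs 5′ to 3′ on the gene's strand, which is the minus strand for all 4, and the last base lies just before the gene start.
Lyz1 (chr10:117292869-117293118): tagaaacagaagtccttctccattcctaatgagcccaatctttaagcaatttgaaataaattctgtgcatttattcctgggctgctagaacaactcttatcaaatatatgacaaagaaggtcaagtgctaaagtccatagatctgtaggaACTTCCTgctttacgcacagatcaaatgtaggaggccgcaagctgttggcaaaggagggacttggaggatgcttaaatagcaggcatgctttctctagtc
Lyz2 (chr10:117282273-117282522): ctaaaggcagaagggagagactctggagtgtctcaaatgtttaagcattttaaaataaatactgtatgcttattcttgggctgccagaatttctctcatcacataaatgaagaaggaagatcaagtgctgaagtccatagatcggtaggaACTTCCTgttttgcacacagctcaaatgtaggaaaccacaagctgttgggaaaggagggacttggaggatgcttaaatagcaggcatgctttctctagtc
Rag1 (chr2:101649533-101649782): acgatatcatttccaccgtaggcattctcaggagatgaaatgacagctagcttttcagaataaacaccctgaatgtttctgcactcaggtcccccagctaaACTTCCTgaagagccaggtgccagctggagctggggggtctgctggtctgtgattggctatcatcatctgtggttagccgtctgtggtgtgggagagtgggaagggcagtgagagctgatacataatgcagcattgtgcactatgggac
Ptprc (chr1:138175306-138175555): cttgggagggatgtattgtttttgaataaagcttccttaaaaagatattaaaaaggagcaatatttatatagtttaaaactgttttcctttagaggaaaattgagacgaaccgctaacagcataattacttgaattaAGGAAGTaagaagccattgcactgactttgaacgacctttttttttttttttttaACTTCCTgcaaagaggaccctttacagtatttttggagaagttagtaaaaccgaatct

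The Lyz1 and Lyz2 windows were 78.8% identical when aligned, and 92% identical over the last 100 bases. In each the motif began 100 bases before the gene start. The Rag1 window held it once, 149 bases before the start. The Ptprc window shown held 2 copies, 1 on each strand. Another Ptprc window, which overlaps it, held 1 copy, 237 bases before its start, and is not shown. That copy is the same site as 1 of the 2 in the window shown. A match describes the letters only and shows no binding.

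Most thymocyte genes lay near or below the limit on both arrays. Rag1, which encodes the catalytic subunit of the V(D)J recombinase, read 256 and 2823, at least 5.77-fold higher on the double-null array. It ranked 4th of 13315 from the highest ratio, with signals below the limit set to it. Rag2, its partner subunit and its neighbour on chromosome 2, read 138 and 502, just over the limit and at least 1.03-fold higher. Ptcra, the pre-T-cell receptor alpha chain, read 208 and 704, at least 1.44-fold higher. At the 25th percentile limit the log2 ratio was 1.58 for Rag2 and 1.76 for Ptcra, both past 2-fold. The double-null array was the brighter for these 3 genes, and the wild-type array was below the limit for each. Of all genes below the limit on the wild-type array alone, 15.3% were at least 2-fold higher.

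Other thymocyte genes did not follow them. Dntt, the terminal transferase that adds bases at receptor joints, read 530 and 256, at least 1.08-fold lower, with its 2 other probe sets below the limit on both arrays. At the 25th percentile limit its log2 ratio was -1.05. Cd3e (202 and 262) and Cd3g (90.9 and 252), chains of the T cell receptor complex, were below the limit on both arrays. So was the coreceptor Cd4, at 304 and 242 and, at its other probe set, 128 and 268. Cd3e, Cd3g and Cd4 were thus not measured in either sample.

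Cd8a, the coreceptor of cytotoxic T cells and most thymocytes, gave opposite answers at its 5 probe sets. The brightest read 1492 and 677, 2.20-fold lower. Another read 610 and 626, and both of these have IDs ending in _x_at. The remaining 3 read 286 and 802, 393 and 853, and 76.6 and 411. The first pair of these had bounds of 1.64-fold and 1.74-fold higher, and the last was below the limit on both arrays. With the median of its measured probe sets the Cd8a log2 ratio was 0.38, so its direction is not settled.

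**Figure D2:**
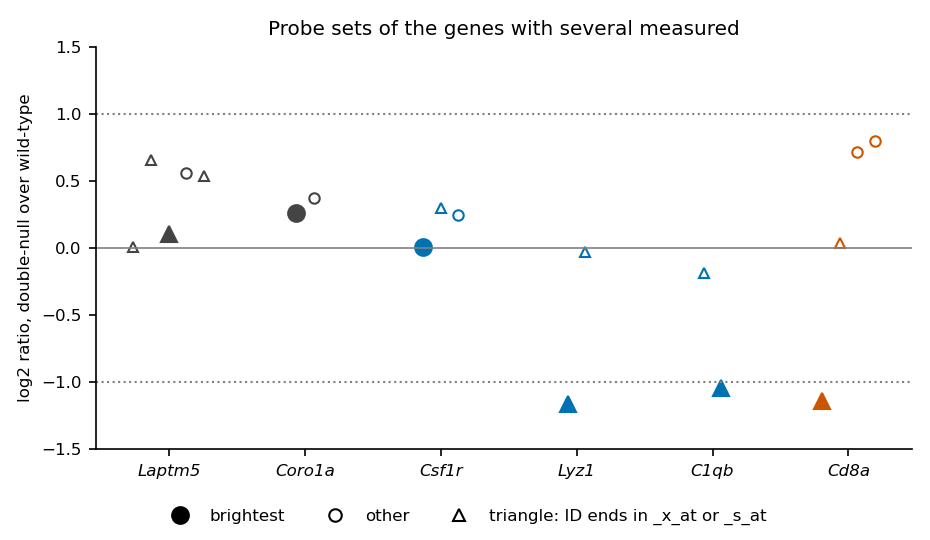
Log2 ratio of the double-null over the wild-type array for each measured probe set of the 6 leukocyte genes that had more than 1. Large filled symbols are the brightest probe set of a gene, triangles mark IDs ending in _x_at or _s_at, and dotted lines mark 2-fold. The brightest probe sets of Lyz1, C1qb and Cd8a lie below the lower line and none of their other measured probe sets does.

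Every lower call of the set came from a probe set of this ambiguous kind. Of 6 genes with several measured probe sets, 5 had a single sign at all of them, the exception being Cd8a. When a gene took the median of its probe sets, 0 genes of the set were at least 2-fold lower and 4 higher. Over all genes, the median of probe sets gave 4.03% lower and 4.55% higher. Without probe sets whose IDs end in _x_at or _s_at, the counts were again 0 and 4. The shares of all measured genes were then 5.28% and 6.01%. Only 22 genes of the set were measured in that setting. Lyz1 and C1qb had no measured probe set left, so their lower calls could not recur. The 4 higher genes each had a single measured probe set, so no second probe set bears on them.

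Mast cell protease genes were dim. Cma1, a chymase of connective tissue mast cells, read 419 and 1178, at least 2.41-fold higher on the double-null array. Cpa3, mast cell carboxypeptidase A, read 594 and 417, at least 1.22-fold lower. Mcpt4, another chymase, read 15.4 and 21.2, far below the limit on both arrays. The 2 measured proteases therefore went in different directions, each on the strength of 1 array.

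**Figure D3:**
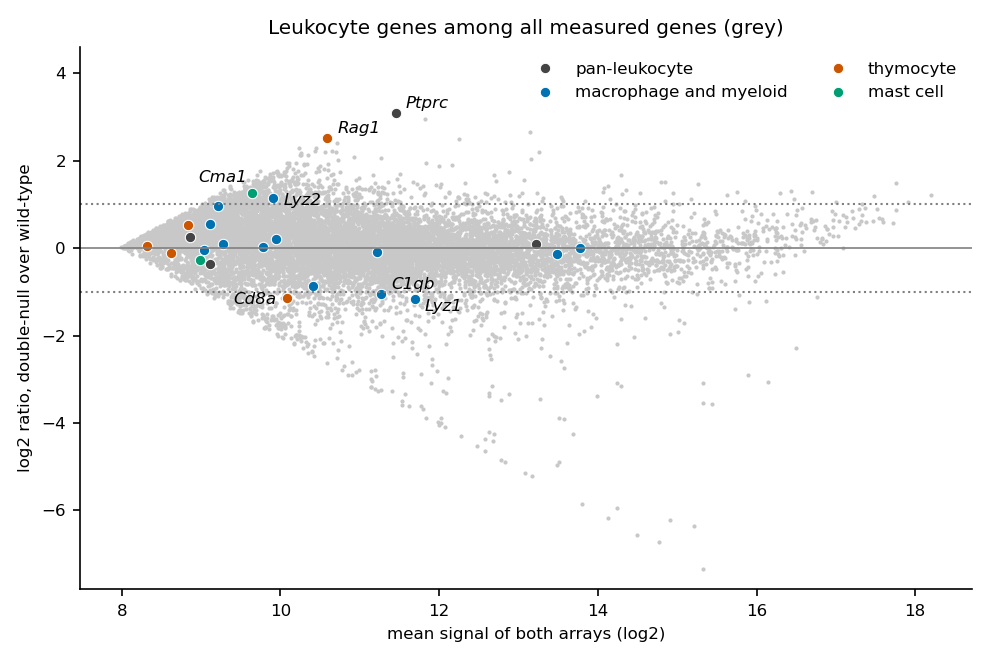
Log2 ratio of the double-null over the wild-type array against the mean signal of both arrays (log2) for all 13315 measured genes (grey) and the 24 measured leukocyte genes, coloured by class. Dotted lines mark 2-fold. Ptprc and Rag1 lie at the upper edge of all genes. Lyz2 and Cma1 lie above the upper dotted line, and Lyz1, C1qb and Cd8a below the lower one. The other leukocyte genes lie between the dotted lines.

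Further genes of the same cell types, from lists that are not part of the set, were read for comparison. Of 18 measured macrophage genes, 3 were at least 2-fold higher and 0 lower, against 6.01% and 5.36% of all measured genes, with a median log2 ratio of 0.40. They were the GM-CSF receptor chain Csf2ra (466 and 1645, at least 3.36-fold), the endocytic adaptor Dab2 (6304 and 14035, 2.23-fold) and the pore-forming protein gene Mpeg1 (721 and 1582, 2.19-fold). Dab2 is also made by cells other than macrophages. The ratio was below 0 for 6 of the 18, among them the macrophage surface marker Adgre1 (3259 and 2361) and the transglutaminase F13a1 (3509 and 2829). Of 14 measured pan-leukocyte genes, 1 was higher, the lymphoid factor Ikzf1 (298 and 1330, at least 2.72-fold), and 0 lower, with a median of 0.48. The brightest of that list, the NADPH oxidase subunit Cyba and the phosphatase Ptpn6, read 1695 and 1196, and 1518 and 1366. Among genes at or above the limit on both arrays the medians were 0.23 for 15 macrophage and 0.21 for 8 pan-leukocyte genes, beside 0.014 for all such genes.

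Of 10 measured T cell genes outside the set, 3 were at least 2-fold higher and 0 lower, against 6.01% and 5.36% of all measured genes, with a median of 0.73. They were the Wnt pathway factor Lef1 (386 and 1251, at least 2.56-fold), the thymocyte selection gene Themis (371 and 1033, at least 2.11-fold) and the chromatin organizer Satb1 (4016 and 8297, 2.07-fold). Lef1 and Satb1 are also expressed outside T cells. The ratio is a bound for 6 of the 10, 5 of them below the limit on the wild-type array only, a kind of gene of which 15.3% were at least 2-fold higher over the whole array. Of the 10, 3 had ratios below 0, with the kinase Zap70 at 3427 and 2708, the surface gene Thy1 at 1008 and 915, and the surface gene Cd5 at 644 and 131. The other Zap70 probe sets read 122 and 457, and 125 and 241, below the limit on both arrays. Cd3d, a defining T cell receptor chain, read 19.6 and 92.1 and was not measured.

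Thymic epithelium was looked for because the thymus lies near the upper esophagus. Only 2 of its 6 genes were measured, the protease Prss16 (323 and 718) and the chemokine Ccl25 (19.2 and 565). Both ratios are bounds, of at least 1.47-fold and 1.16-fold higher. Its defining factor Foxn1 read 158 and 316 and the thymoproteasome subunit Psmb11 58.6 and 103, below the limit on both arrays. The summed signal over all 8 probe sets of this list was 824 and 2227, but 6 of them were below the limit on both arrays. Of all genes below it on both arrays, 64.3% read higher on the double-null array. The part of thymus tissue in the Rag1 difference was not tested.

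Of 7 measured mast cell genes outside the set, 1 was higher and 0 lower, against 6.01% and 5.36% of all measured genes. Their median was 0.13. The higher gene was the tryptase Tpsb2, which read 51.4 and 1097, at least 2.24-fold higher. The brightest were the histamine-forming enzyme Hdc (3190 and 6214, 1.95-fold higher, at an _s_at probe set) and the factor Gata2 (1016 and 1431). The ratio was below 0 for 2 of the 7, Srgn (855 and 496, 1.72-fold lower) and Ms4a2. The IgE receptor chains Fcer1a and Ms4a2, defining markers of mast cells, were at 29.4 and 81.1, and at 500.0 and 290.5 at the brighter Ms4a2 probe set.

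Other blood cell types showed no direction common to all of them. For the counts that follow, 6.01% of all measured genes were at least 2-fold higher and 5.36% lower. Of 7 measured neutrophil genes, 0 were higher and 1 lower, lactoferrin (Ltf), which read 16481 and 3403, 4.84-fold lower and which glandular epithelium also makes. The granule gene Ngp read 1795 and 2052. Of 5 erythroid genes, 1 was lower, the band 3 anion exchanger Slc4a1 (1521 and 654, 2.33-fold), and 0 higher, with a median of -0.89. The brightest, the transferrin receptor Tfrc and the haem enzyme Alas2, read 10909 and 5688, and 4576 and 2466. With Slc4a1 they were the 3 erythroid genes at or above the limit on both arrays, each lower. The median of these 3 was -0.94, beside 0.014 for all such genes. The other measured erythroid genes were below the limit on the wild-type array. They were the factor Klf1 (404 and 910) and the globin Hba-a1 (212 and 632), higher by at least 1.86-fold and 1.29-fold. Hba-a1 was read at its only probe set with a single symbol. Any globin probe set that carries several symbols was left out. Of 3 platelet genes, 1 was lower, the chemokine Ppbp (1741 and 612, 2.85-fold), while the integrin Itga2b read 872 and 1606. Of 4 B cell genes, 1 was lower, the surrogate light chain Igll1 (1266 and 85.5, at least 2.59-fold, at an _x_at probe set), and the factor Ebf1 read 1383 and 1009.

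In the dendritic and natural killer lists 0 of 4 and 0 of 2 measured genes were 2-fold apart. Over all measured genes 6.01% were higher and 5.36% lower. Zbtb46 and Itgax, genes of dendritic cells, read 628 and 1026, and 378 and 581. The natural killer genes Nkg7 and Gzma read 218 and 604, and 69.7 and 684. Each of the 6 measured ratios lay above 0, beside 56.6% of all measured genes. Of the 6, 5 are bounds from genes below the limit on the wild-type array only. A gene that passes the limit on the double-null array alone necessarily has a ratio above 0, so those 5 signs follow from which genes were measured.

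**Figure D4:**
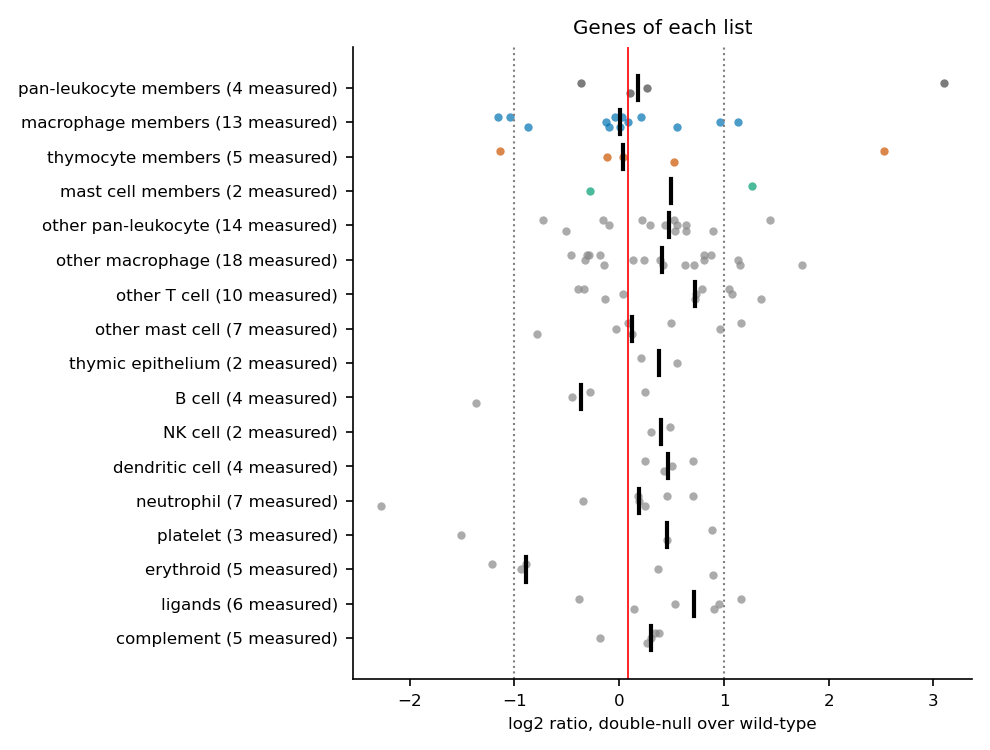
Log2 ratio of the double-null over the wild-type array for each measured gene (dots) of 17 lists, with the list median as a black bar, 2-fold as dotted lines and the median of all measured genes, 0.086, as a red line. The medians of the 4 classes of the set lie between 0.009 and 0.49, and the erythroid and B cell medians lie below 0.

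Growth factors and chemokines that act on leukocytes were read last. Csf1, the growth factor that binds Csf1r, read 1114 and 2498 at its brightest probe set, 2.24-fold higher, while other Csf1 probe sets read 358 and 814, and 545 and 441. Cx3cl1, the ligand of Cx3cr1, read 307 and 949, at least 1.94-fold higher. Kitl, the growth factor of mast cells and their Kit receptor, read 9391 and 13568, 1.44-fold higher, and 1206 and 2506, 2.08-fold higher, at another probe set. Cxcl12, a chemokine of stromal cells that draws leukocytes, read 2223 and 2460. Il34 and Ccl2 were below the limit on both arrays. Of 6 measured ligands, 1 was at least 2-fold higher and 0 lower, against 6.01% and 5.36% of all measured genes. Il33, also on this list, read 2432 and 1862, 1.31-fold lower, and was the only 1 of the 6 with a ratio below 0. The median was 0.72, but 2 of the 6 were below the limit on the wild-type array only. Over the 4 ligands at or above the limit on both arrays it was 0.34, beside 0.014 for all such genes. The macrophage receptors Csf1r and Cx3cr1 were nearly equal on the arrays, as given above.

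Among other complement genes 0 of 5 measured were 2-fold apart, where 6.01% of all measured genes were higher and 5.36% lower. C1s1, a protease that C1q carries, read 2414 and 3064, 1.27-fold higher, and the inhibitor Serping1 read 3086 and 2710, 1.14-fold lower.

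**Figure D5:**
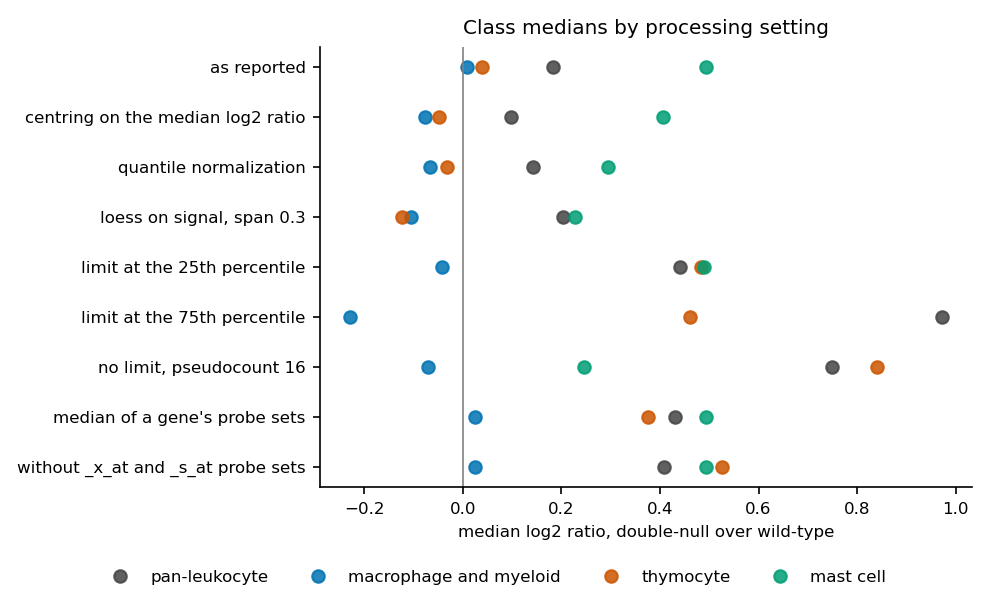
Median log2 ratio of the measured genes of each class of the set under the reported setting and each of 8 alternatives. The macrophage median stays between -0.23 and 0.025, whereas the thymocyte median runs from -0.12 to 0.84. With the limit at the 75th percentile the pan-leukocyte and thymocyte medians rest on 2 genes each. The mast cell class has no measured gene at that limit.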

How the data were processed

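Per the labels' protocols, biotin-labelled cRNA from 6 µg of total RNA was hybridized to Affymetrix arrays. The deposited intensities are linear MAS5 signals made by the authors, per the submitters' processing notes, with no version or settings stated in the sources used here. Their trimmed means were 1500.01 on each array. Of 45101 probe sets, 64 controls were left out, 34945 have a single symbol, 932 several and 9160 none. Names came from GEO's platform annotation, updated by Entrez ID through the RefSeq table of GRCm38.p6 (34741 probe sets matched).

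Ratios used the authors' scaling with the 50th percentile as limit. Of 18193 genes, 4878 were below it on both arrays and 2969 on 1. No test was possible with 1 array per genotype, and the precision is limited by the number of arrays. The text names all genes of the set, and of other lists those at least 2-fold apart (up to 4) or, with fewer than 2 such genes, the brightest 2. Named after their values were seen were Ikzf1, Tpsb2, Slc4a1, Klf1, Hba-a1, Adgre1, F13a1, Zap70, Thy1, Cd5, Cd3d, Foxn1, Psmb11, Fcer1a, Ms4a2, Srgn, Csf1, Cx3cl1, Il33, Il34 and Ccl2. The set and lists were chosen with earlier results of these data known.

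Alternatives were centring, quantile normalization, loess (span 0.3), limits at the 25th and 75th percentiles, a pseudocount of 16 in place of a limit, gene-wise medians of probe sets, dropping _x_at and _s_at probe sets, and a 4-fold threshold. The ratio and count steps were tested on simulated data. Python 3.11.15, numpy 2.4.6, pandas 2.3.3, statsmodels 0.14.6 and Biopython 1.88 were used.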

Additional observations from a re-analysis of the deposited data

How the results depend on the processing

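No paired analysis was possible because each genotype had 1 array. Ptprc and Rag1 stayed at least 2-fold higher in all 8 alternatives that gave them a value, with log2 ratios of 1.84 to 3.10 and 1.01 to 3.46, and Cma1 in all 7 (1.06 to 1.49). Lyz2 fell to under 2-fold with quantile normalization and loess (lowest 0.83). With quantile normalization the other measured C1qb probe set became the brightest, at -0.13. Cd8a turned to 0.38 with the median of probe sets and 0.80 without _x_at and _s_at probe sets. The count of genes at least 2-fold higher was 7 of 31 measured at the 25th percentile limit and 2 of 10 at the 75th. It was 9 of 34 with no limit and 2 of 24 at 4-fold. The shares of all measured genes in these settings were 16.6%, 1.85%, 19.5% and 0.158%. The count lower was 6 at the 25th percentile limit and 6 with no limit, beside 7.45% and 9.37% of all measured genes. It was 0 with the median of probe sets, 0 without _x_at and _s_at probe sets and 0 at 4-fold. The shares of all measured genes were 4.03%, 5.28% and 1.07%. Without _x_at and _s_at probe sets, Lyz1 and C1qb were not measured. Over all genes, 3974, 531 and 5252 were 2-fold apart at the 25th and 75th percentile limits and with no limit, against 1514 as reported. The median of the set was -0.090 with loess, -0.097 at the 75th percentile limit, 0.15 with the median of probe sets and 0.15 without _x_at and _s_at probe sets. The macrophage median was -0.23 at the 75th percentile limit, from 6 genes. The thymocyte median was 0.48 at the 25th percentile limit and 0.46 at the 75th, the latter from 2 genes. It was 0.84 with no limit, 0.38 with the median of probe sets and 0.53 without _x_at and _s_at probe sets. The pan-leukocyte median was 0.97 at the 75th percentile limit, from 2 genes, and 0.75 with no limit. Of 173 values of single genes under an alternative, 156 moved by less than the spread between probe sets without a change of sign in a 2-fold gene, although Lyz2 (above) and C1qb (-0.62 with the median of probe sets) lost the 2-fold call among these and Fcgr3 gained it. Where the cause of a shift is not given, the cause was not tested. Of the 34 genes, 10 could not be measured and 10 have only a bound.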
